A study of Mus musculus with 6 samples.

Results

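The Mas-related G protein-coupled receptors of mast cells *Mrgprb1*, *Mrgprb2* and *Mrgprx2*, and *Calca*, the gene of calcitonin and of the neuropeptide calcitonin gene-related peptide (CGRP), are described here in mouse acute myeloid leukemia (AML) cells with and without *Phf6*. These 4 genes were taken by symbol from the deposited table of 54532 genes. They were selected on the read counts of these same libraries, for reads in *WT Phf6,RE9a* and hardly any in *VC Phf6,RE9a* cells, so the difference between the groups is given for them as a description with no test. RNA-sequencing was performed on GFP+ leukemia cells sorted from bone marrow, with 3 samples from *WT Phf6,RE9a* mice (replicates 1, 2 and 3) and 3 from *VC Phf6,RE9a* mice (replicates 11, 12 and 13). *WT Phf6,RE9a* cells carried a floxed *Phf6* allele on the X chromosome of male mice (*Phf6 fl/y*) and no Cre, and *VC Phf6,RE9a* cells carried *Vav1-Cre* with the same allele (*Vav1-Cre;Phf6 fl/y*), in which Cre is made in blood cells. In both groups, lineage-negative fetal liver cells had received RUNX1-ETO9a (RE9a), a short form of the RUNX1-ETO fusion, from a retrovirus that also carries GFP, and were transplanted serially into male recipients. The age of the mice is not given in the labels. Nothing in the labels tells if replicates stem from separate leukemias or animals, so the p-values below measure only the spread between these samples, which may be technical.

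Mas-related receptors are small G protein-coupled receptors without introns in their coding part, and most of them are known from sensory neurons of itch and pain. *Mrgprb2* is an exception, since it is the receptor through which basic peptides and many drugs make connective tissue mast cells degranulate without IgE, and it is the mouse counterpart of human MRGPRX2 in function. *Mrgprb1* is a close relative with a less known role. The mouse gene named *Mrgprx2* in the table is listed in RefSeq with the older name *Mrgprb10*, and its symbol does not make it the counterpart in function of the human gene. CGRP is cut from a precursor, stored in dense-core granules of sensory neurons, and acts on a receptor made of *Calcrl* and *Ramp1*. Nerve endings and mast cells lie close together in skin and gut, where neuropeptides can act on mast cells and mast cell proteases can cut CGRP.

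Total counts ran from 15675358 to 16817994 per library. *Phf6* was read 1044, 827 and 1142 times in *WT Phf6,RE9a* and 388, 314 and 331 times in *VC Phf6,RE9a* libraries. The direction matched the labels, with a log2 fold change of -1.66, but reads remained in each *VC Phf6,RE9a* library. Counts per gene cannot tell if these came from a deleted or an intact allele. Levels are in CPM, the read count relative to the size of its library after scaling by the trimmed mean of M-values (TMM). Where a gene had no read, up to 3 reads remain possible, which is no more than 0.204 CPM per *WT Phf6,RE9a* library and 0.178 CPM per *VC Phf6,RE9a* library. These limits and the intervals below cover counting error only, since no molecular identifiers were used and reads can be copies. In bulk RNA, fewer cells of a type and less RNA per cell cannot be told apart. GFP is not a gene of the table, so the sort itself could not be checked by it. Of 30 mast cell markers, all had reads, and their summed level ran from 29002.5 to 44501 CPM in *WT Phf6,RE9a* and from 9678 to 10637 CPM in *VC Phf6,RE9a* cells. The part of mast cell-like gene expression in the results below was not tested.

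The receptor members lie side by side on the minus strand of chromosome 7. On GRCm38, *Mrgprb1* lies at chr7:48444113-48456342, *Mrgprx2* at chr7:48478619-48499321 and *Mrgprb2* at chr7:48550965-48558086. The gap between *Mrgprb1* and *Mrgprx2* is 22.3 kb, and that between *Mrgprx2* and *Mrgprb2* is 51.6 kb. *Calca* lies 66073 kb further on the same chromosome, at chr7:114631478-114636357. Each receptor model has 2 exons, and coding sequences of 1014 bases in *Mrgprb2*, 1056 bases in *Mrgprx2* and 1050 bases in *Mrgprb1*. The coding sequences of *Mrgprx2* and *Mrgprb1* were identical at 85.1% of aligned bases, whereas *Mrgprb2* shared 72.7% with *Mrgprx2* and 73.4% with *Mrgprb1*. The longest stretch that matched exactly between any of them was 39 bases, and none of the 150-base windows of the 4 members occurred in the transcripts of another gene. A read of that length can therefore be placed in each member, but a shorter or mismatched read could still be split between the receptors.

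The promoters of the receptors are printed because these neighbouring genes begin with related letters. They were taken from RefSeq (GRCm38.p6), each written 5′ to 3′ on the minus strand up to the base before the start of the gene. Capitals mark words bound by GATA factors (the word AGATAA, the word AGATAG, the word TGATAA and the word TGATAG) or RUNX factors (the word TGTGGT and the word TGCGGT) on either strand, since *Gata2* is a transcription factor of mast cells and RUNX1 is the DNA-binding part of the fusion. The *Mrgprx2* promoter is printed without the 51 bases nearest to the RefSeq start, because these lie in an exon of the GENCODE model.
*Mrgprb2*, chr7:48558087-48558336: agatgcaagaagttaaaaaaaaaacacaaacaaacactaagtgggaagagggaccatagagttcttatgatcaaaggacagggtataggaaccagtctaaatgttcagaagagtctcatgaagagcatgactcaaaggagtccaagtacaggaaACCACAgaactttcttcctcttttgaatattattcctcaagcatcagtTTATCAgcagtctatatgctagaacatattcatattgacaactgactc
*Mrgprx2*, chr7:48499322-48499520: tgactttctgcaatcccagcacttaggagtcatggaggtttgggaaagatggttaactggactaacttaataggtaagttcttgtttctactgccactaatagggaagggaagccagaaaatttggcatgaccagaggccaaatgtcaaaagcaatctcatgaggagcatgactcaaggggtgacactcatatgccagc
*Mrgprb1*, chr7:48456343-48456592: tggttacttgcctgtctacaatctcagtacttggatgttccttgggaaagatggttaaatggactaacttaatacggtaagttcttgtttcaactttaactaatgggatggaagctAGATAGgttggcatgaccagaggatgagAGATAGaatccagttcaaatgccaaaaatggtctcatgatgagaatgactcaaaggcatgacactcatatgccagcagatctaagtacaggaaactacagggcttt

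In the 250 bases before the start, *Mrgprb2* held a GATA word 48 bases and a RUNX word 96 bases upstream. *Mrgprx2* held a RUNX word 34 bases upstream, in the exon stretch left out of the promoter printed above. *Mrgprb1* held GATA words 134 and 106 bases upstream. *Calca* held a GATA word 218 bases upstream. None of the 4 windows held an M-box (the letters CATGTG, the letters CACGTG or the letters CACATG), the word of the mast cell factor MITF, or a cyclic AMP response element (TGACGTCA). Such words are common, and of 32851 promoters of this length 26.5% held a GATA word, 18.6% a RUNX word, 17.6% an M-box and 1.55% a cyclic AMP response element. A word is a description of letters and not a binding site.

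The receptor promoters also share a stretch of 13 bases, found by comparing all letters. It is shown in 30-base segments with the 6 letters at the RUNX word in capitals.
*Mrgprb2*, chr7:48558170-48558199: gagtccaagtacaggaaACCACAgaacttt
*Mrgprx2*, chr7:48499292-48499321: agatccaagtacaggaaACCACAaggcttc
*Mrgprb1*, chr7:48456343-48456372: agatctaagtacaggaaACTACAgggcttt
The word was the same in *Mrgprb2* and *Mrgprx2*, and *Mrgprb1* differed from them by C3T, with positions counted from the 5′ end of the word and the base of *Mrgprb2* first. The longest exact run was 23 bases between *Mrgprx2* and *Mrgprb1*, and between a receptor and *Calca* it was at most 10 bases.

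*Mrgprb2* was the most strongly read member. It had 3592, 1852 and 2437 counts in *WT Phf6,RE9a* replicates 1, 2 and 3, and 0, 6 and 8 counts in *VC Phf6,RE9a* replicates 11, 12 and 13. These counts came to 233, 126 and 147 CPM against 0, 0.350 and 0.475 CPM, and the groups did not overlap. The mean of *WT Phf6,RE9a* cells was 169 ± 56.8 CPM (SD, n = 3). The pooled rate of a group is its summed reads over its summed scaled library sizes. In *WT Phf6,RE9a* cells it was 614 times that of *VC Phf6,RE9a* cells (95% exact counting interval from 366 to 1124). This ratio rests on 14 reads, and when *VC Phf6,RE9a* replicate 13 was left out it was 961, and 408 when replicate 11 was.

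*Mrgprx2* was counted 1264, 771 and 784 times in *WT Phf6,RE9a* libraries, which came to 82.1, 52.3 and 47.4 CPM. In *VC Phf6,RE9a* cells a single read was counted, in replicate 12, and replicates 11 and 13 were at 0. The mean of *WT Phf6,RE9a* cells was 60.6 ± 18.7 CPM (SD, n = 3), and the ratio of the pooled rates was 3077 with an exact counting interval from 552 to 121564. Without *VC Phf6,RE9a* replicate 12 no read was left in that group and *Mrgprx2* was at least 339-fold higher in *WT Phf6,RE9a* cells, while the ratio lay between 2044.73 and 2062.7 when replicate 11 or 13 was left out.

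The reads of *Mrgprb1* numbered 118, 532 and 124 in *WT Phf6,RE9a* replicates 1, 2 and 3, and each *VC Phf6,RE9a* library had 0. Its level was 7.66, 36.1 and 7.50 CPM. Replicate 2 was 4.76 times the mean of the other *WT Phf6,RE9a* libraries, which were nearly equal. With the limit of 3 counts in each *VC Phf6,RE9a* library, *Mrgprb1* was at least 95.9-fold higher in *WT Phf6,RE9a* cells, and at least 42.8-fold without *WT Phf6,RE9a* replicate 2.

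*Calca* followed the same order. Its *WT Phf6,RE9a* counts were 190, 545 and 115, or 12.3, 37.0 and 6.96 CPM, and 0 counts in each *VC Phf6,RE9a* library. Replicate 2 was 3.83 times the mean of the other *WT Phf6,RE9a* libraries, and *Calca* was at least 105-fold higher in *WT Phf6,RE9a* cells, or at least 54.4-fold without that replicate. The gene has 7 annotated transcripts, 6 of them coding, and counts per gene cannot separate calcitonin from CGRP.

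**Figure D1:**
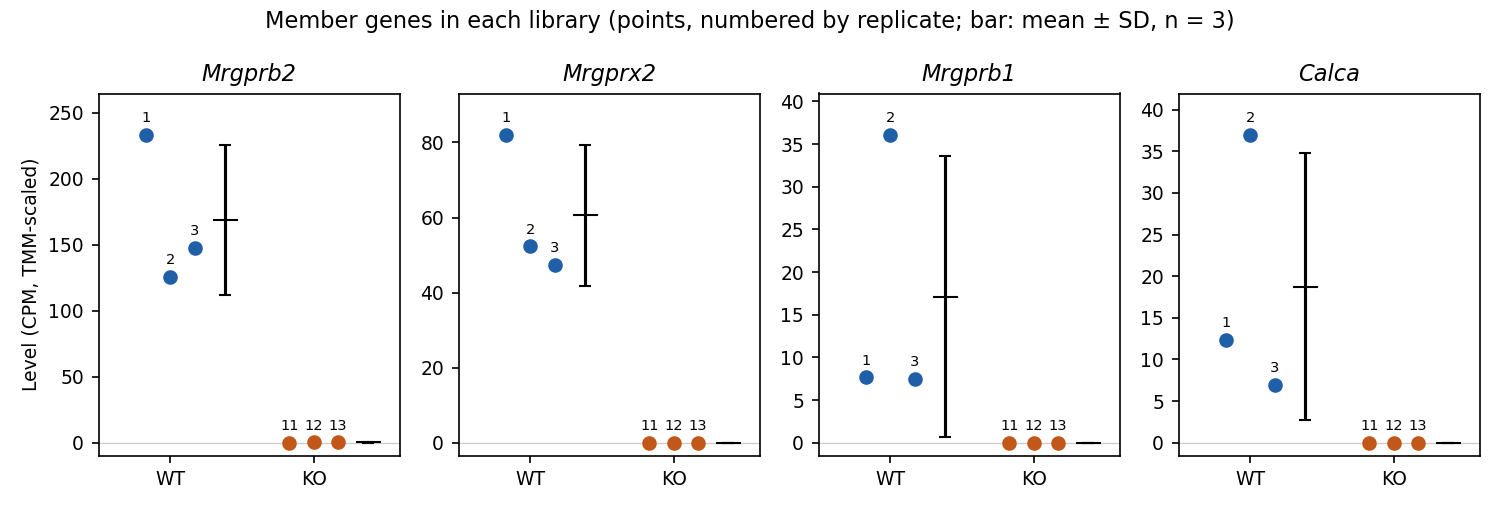
Level of each member gene in CPM (y axis, linear, 1 scale per panel) in the *WT Phf6,RE9a* (WT, blue) and *VC Phf6,RE9a* (KO, orange) libraries. Points are libraries numbered by replicate, and bars give the mean ± SD of 3 libraries. Replicate 1 is highest for *Mrgprb2* (233 CPM) and *Mrgprx2* (82.1 CPM), replicate 2 is highest for *Mrgprb1* (36.1 CPM) and *Calca* (37.0 CPM), and the *VC Phf6,RE9a* libraries lie at or near 0 in each panel.

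All 4 members passed the filter on low counts, and each passed only through its *WT Phf6,RE9a* libraries. Each *VC Phf6,RE9a* library lay under each *WT Phf6,RE9a* library for all 4, as for 28.4% of the 14169 genes tested. Fewer genes were as extreme. Of 9251 genes with at least 100 counts in each *WT Phf6,RE9a* library, 16 had at most 3 counts in each *VC Phf6,RE9a* library, and 7 of these had none. *Mrgprx2*, *Calca* and *Mrgprb1* were among the 16, and *Mrgprb2* lay just outside with its 6 and 8 counts. Such a large fall was uncommon, with 1.48% of genes called at least 16-fold lower, but the members had been picked for it.

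Levels of different genes were compared per kilobase of exon, on the CPM scale. In *WT Phf6,RE9a* cells *Mrgprb2* stood at 81.3 ± 27.4, *Mrgprx2* at 12.8 ± 3.96, *Calca* at 11.1 ± 9.50 and *Mrgprb1* at 4.08 ± 3.93 CPM per kilobase (SD, n = 3). *Mrgprb2* was above *Mrgprx2* in 3 of 3 libraries, by 5.48 to 7.09 times. *Mrgprx2* and *Calca* could not be ordered, since *Mrgprx2* was higher in replicates 1 and 3 and lower in replicate 2. *Calca* was above *Mrgprb1* in 3 of 3 libraries, by at least 2.30 times, although their means differed by less than the SD of *Calca*. *Mrgprb2* ranked 535 among 14169 genes by its level per kilobase in *WT Phf6,RE9a* cells and *Mrgprb1* ranked 8462. The mast cell proteases stood far above them, with *Cpa3* at 4449 and *Cma1* at 3331 CPM per kilobase.

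The members fell into 2 patterns among the *WT Phf6,RE9a* libraries. *Mrgprb2* and *Mrgprx2* were highest in replicate 1, while *Mrgprb1* and *Calca* were highest in replicate 2, and 3 libraries of a group give no test of this. Relative to the *WT Phf6,RE9a* mean, replicate 1 stood at 1.38 for *Mrgprb2* and 1.35 for *Mrgprx2*, and replicate 2 at 2.11 for *Mrgprb1* and 1.97 for *Calca*. The coefficient of variation was 33.7% for *Mrgprb2*, 30.9% for *Mrgprx2*, 96.3% for *Mrgprb1* and 85.3% for *Calca*, where the median of 8960 genes with a *WT Phf6,RE9a* mean of at least 10 CPM was 11.6%. Of these genes, 99.9% varied less than *Mrgprb1* and 93.8% less than *Mrgprb2*. Replicate 2 was over 2-fold above both other *WT Phf6,RE9a* libraries for 84 genes, among them *Mrgprb1*, *Calca* and the lincRNA *Gm6093*. The same held for 52 genes in replicate 1 and 19 in replicate 3.

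Mast cell genes also fell on both sides. Of 21 mast cell markers lower in *VC Phf6,RE9a* cells, 11 were highest in *WT Phf6,RE9a* replicate 1, 9 in replicate 2 and 1 in replicate 3. Of the 8960 genes above, 31.3% were highest in replicate 1, 32.6% in replicate 2 and 36.1% in replicate 3. The chymase *Mcpt4* stood at 1.79 in replicate 1 and 0.372 in replicate 2 relative to its *WT Phf6,RE9a* mean, and the serotonin transporter *Slc6a4* at 1.69 and 0.601. The tryptase *Tpsb2* stood at 1.06 and 1.23, and *Cpa3* at 1.02 and 1.21. Replicate 2 thus stood further above the mean in *Mrgprb1* and *Calca* than in the abundant proteases. *Mcpt4* and *Slc6a4* lie outside the rule for named genes and were chosen after their values were seen.

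**Figure D2:**
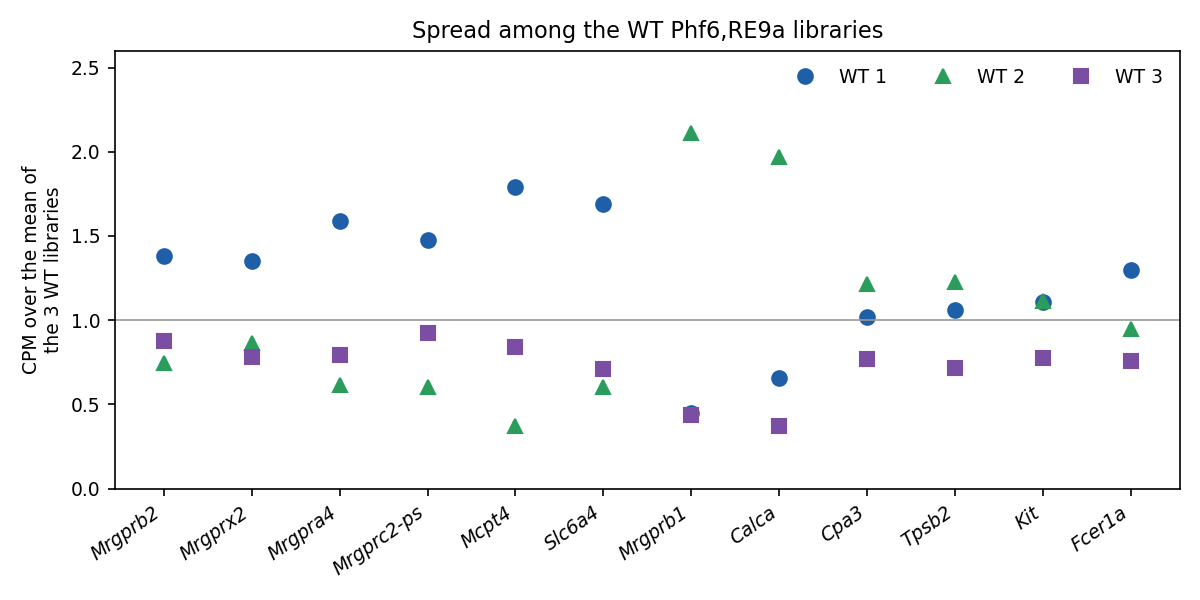
CPM of each gene in *WT Phf6,RE9a* replicates 1, 2 and 3 (WT 1 to WT 3), divided by the mean of the 3 libraries (y axis, linear from 0), for members, other Mas-related genes and mast cell genes (x axis). *Mrgprb1* and *Calca* peak in replicate 2 at 2.11 and 1.97, whereas *Mrgprb2*, *Mrgprx2*, *Mrgpra4*, *Mrgprc2-ps*, *Mcpt4* and *Slc6a4* peak in replicate 1.

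The table held 34 genes of the Mas-related receptor family, of which 32 lie on chromosome 7 and 13 are pseudogenes. Reads were found for 14 of them, and 20 were at 0 in every library, *Mrgprb3*, *Mrgprb4* and *Mrgprb5* of the same gene cluster included. Beside the members, 4 could be tested, and 3 of these were lower and 1 higher in *VC Phf6,RE9a* cells at an adjusted p under 0.05 from edgeR. Each of these 4 passed the filter on low counts only through the group where it was higher, so the calls are best read as a description. Over all genes tested, 22.7% were called lower and 21.5% higher, and the counts of every list below are to be read beside these shares. The receptor members held 80.5% to 86.3% of the reads of the family in *WT Phf6,RE9a* cells and 0% to 26.7% in *VC Phf6,RE9a* cells, where the family had 30 to 79 reads per library.

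*Mrgpra4*, a receptor of the A branch, lies 462 kb from *Mrgprb1*. Its reads numbered 818, 302 and 438 in *WT Phf6,RE9a* and 0, 4 and 0 in *VC Phf6,RE9a* libraries. The groups did not overlap, and the ratio of the pooled rates was 425 (exact counting interval from 166 to 1562), with a log2 fold change of -8.60 (SE 0.74, adjusted p = 0.000138 from edgeR). The pseudogene *Mrgprc2-ps* next to it had 264, 103 and 177 counts against 0, 5 and 0, a ratio of 119 (50.6 to 367). Both were highest in *WT Phf6,RE9a* replicate 1, then in replicate 3 and then in replicate 2, which is the order of *Mrgprb2* in CPM.

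*Mrgpre*, a single-copy receptor of the family expressed in brain and sensory neurons, lies far from the others at chr7:143778363-143784500. Its reads numbered 87, 85 and 81 in *WT Phf6,RE9a* libraries and 3 in each *VC Phf6,RE9a* library, a log2 fold change of -4.88 (SE 0.32, adjusted p = 4.94e-05 from edgeR). It overlaps *Gm22064* in the annotation, so its reads are uncertain to that extent. *Mrgpra2b* went the other way, with 9, 4 and 3 counts in *WT Phf6,RE9a* and 60, 40 and 17 counts in *VC Phf6,RE9a* cells (log2 change 2.71, SE 0.61, adjusted p = 0.00901 from edgeR). Its coding sequence is 99.8% identical to that of *Mrgpra2a* (1, 0 and 4 counts against 13, 8 and 1), and 56.2% of its 150-base windows occur in that gene, so the split of reads between them is uncertain.

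The other family genes with reads were too low to test, with at most 19 counts in a library. *Mrgprb11-ps* had 19, 1 and 10 counts in *WT Phf6,RE9a* and 2, 0 and 1 in *VC Phf6,RE9a* cells. *Mrgprx1*, the itch receptor of sensory neurons, had at most 5 counts in a library. *Mrgprb13*, *Mrgprb7-ps*, *Mrgprb8* and *Mrgpra6* had at most 4 counts in a *WT Phf6,RE9a* library and none in *VC Phf6,RE9a* cells.

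**Figure D3:**
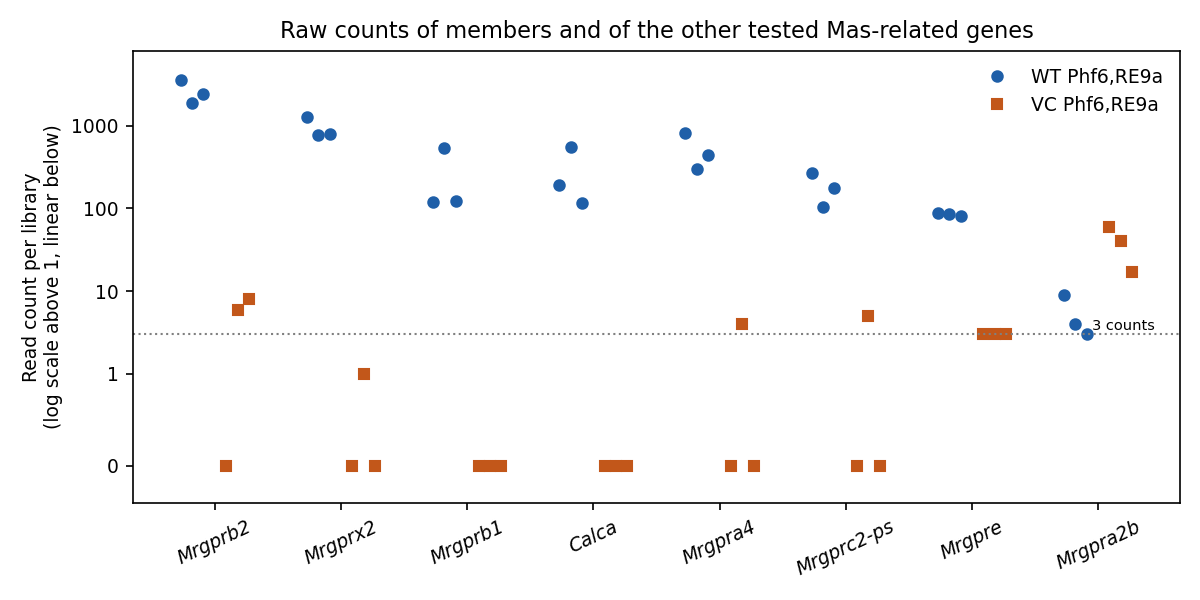
Raw read counts per library (y axis, log scale above 1 and linear below) of the members and of the other Mas-related genes that could be tested (x axis), in *WT Phf6,RE9a* (circles) and *VC Phf6,RE9a* libraries (squares). The dotted line marks 3 counts, which a library without a read could still hold. For *Mrgprb2*, *Mrgprx2*, *Mrgprb1*, *Calca*, *Mrgpra4*, *Mrgprc2-ps* and *Mrgpre* the squares lie at 8 counts or under, and *Mrgpra2b* is the exception, with 17 to 60 counts in *VC Phf6,RE9a* cells.

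The few reads of *Mrgprb2*, *Mrgprx2*, *Mrgpra4* and *Mrgprc2-ps* in *VC Phf6,RE9a* cells did not fall in every library, and their spread was not tested. Replicate 12 held the only read of *Mrgprx2* and all reads of *Mrgpra4* and *Mrgprc2-ps* in that group. The same library had 50.9 CPM of *Tpsb2*, against 0.413 CPM in replicate 11 and 2.14 CPM in replicate 13, and 17.0 CPM of *Tpsab1*, against 2.07 and 3.27 CPM. *Mrgprb2* had 8 counts in replicate 13 and 6 in replicate 12, which is too small a difference to order them. *Cma1* was higher in replicate 13 than in replicate 12, with 87.7 against 77.0 CPM, and so was *Mcpt4*, with 6.89 against 2.27 CPM. *Cpa3* was highest in replicate 12, with 390 CPM against 158 CPM in replicate 11 and 274 CPM in replicate 13. *Fcer1a*, the ligand-binding chain of the IgE receptor, lay between 5.11 and 5.43 CPM in all 3 libraries.

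Of the genes around the receptor members, 29 start or end within 500 kb. Of these 12 were at 0 in every library and 8 were tested, and 6 of the 8 were lower and 0 higher in *VC Phf6,RE9a* cells. Around *Calca*, 8 of 17 genes were at 0, and 3 of 4 tested genes were lower and 0 higher. Among all genes tested, 22.7% were called lower and 21.5% higher. *Mrgpra4* and *Mrgprc2-ps* were the neighbours with the largest change. Both were already counted in the Mas-related family, so the 2 counts are not separate. The next was *Pde3b*, a phosphodiesterase of cyclic AMP and cyclic GMP 92.2 kb from *Calca*, with 868, 205 and 393 counts in *WT Phf6,RE9a* and 43, 10 and 9 in *VC Phf6,RE9a* libraries (a log2 change of -4.68, SE 0.73, adjusted p = 0.00185 from edgeR).

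Other neighbours changed less. *Zdhhc13*, a palmitoyltransferase 231 kb from *Mrgprb2*, had a log2 fold change of -0.92, the muscle LIM protein gene *Csrp3* of -1.36, the transcript *Gm2788* of -2.65 and *Gm45041* of -1.65. *Csrp3* and *Gm45041* lost their call without *VC Phf6,RE9a* replicate 12 (adjusted p = 0.0602 and 0.0583 from edgeR). The cell cycle factor *E2f8* (-0.11, SE 0.21) and the cytoskeletal gene *Nav2* (0.22, SE 0.12) did not pass, although *Nav2* passed as higher without *WT Phf6,RE9a* replicate 2 (adjusted p = 0.0470 from edgeR). On the side of *Calca*, the coatomer gene *Copb1* had a log2 fold change of -0.51 and the pseudogene *Gm15500* one of -0.39, whose call was lost without *WT Phf6,RE9a* replicate 2 or any 1 of the *VC Phf6,RE9a* libraries, and the proteasome gene *Psma1* did not pass (0.18, SE 0.09). *Calcb*, the gene of the second form of CGRP 82.3 kb away, had 1 read in all.

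**Figure D4:**
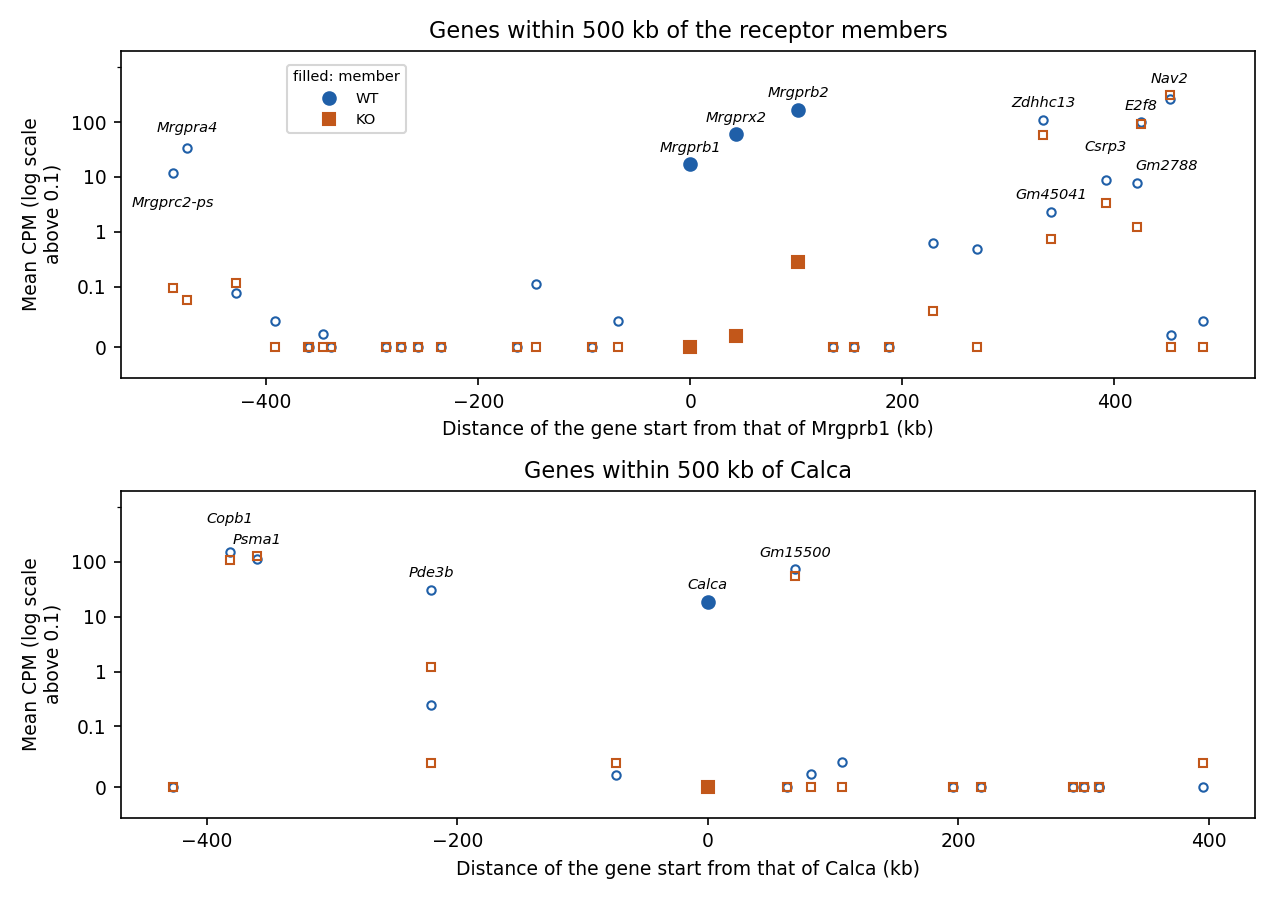
Mean CPM in *WT Phf6,RE9a* (WT, circles) and *VC Phf6,RE9a* (KO, squares) cells (y axis, log scale above 0.1 and linear below) of each gene within 500 kb of the receptor members (top) or *Calca* (bottom), by the distance of its start from that of *Mrgprb1* or *Calca* in kb (x axis). Members are filled. *Mrgpra4*, *Mrgprc2-ps* and *Pde3b* show the widest gaps among the neighbours, and most genes between *Mrgpra4* and *Mrgprb1* lie at or near 0.

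Beside *Calca*, the CGRP system held the receptor. *Calcrl*, the receptor chain, had 825, 1115 and 778 counts in *WT Phf6,RE9a* and 723, 672 and 699 in *VC Phf6,RE9a* cells. *Ramp1*, which makes it a CGRP receptor, had 720, 939 and 634 counts against 607, 489 and 613. Both were lower in *VC Phf6,RE9a* cells in the fit with all libraries, *Calcrl* by a log2 fold change of -0.51 (SE 0.17, adjusted p = 0.0414 from edgeR) and *Ramp1* by -0.56 (SE 0.19, adjusted p = 0.0469 from edgeR). Neither call was firm. *Calcrl* did not pass without *WT Phf6,RE9a* replicate 1 or without any 1 of the *VC Phf6,RE9a* libraries (adjusted p from 0.0554 to 0.122 from edgeR), and *Ramp1* did not pass without *WT Phf6,RE9a* replicate 1 or 2 or without any 1 of the *VC Phf6,RE9a* libraries (0.0730 to 0.149).

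The other partners of *Calcrl* were hardly read, with *Ramp3* at 17, 14 and 4 counts in *WT Phf6,RE9a* and 1, 0 and 0 in *VC Phf6,RE9a* cells and *Ramp2* at under 0.1 CPM in both groups. *Adm2*, the gene of the related peptide intermedin, was at 0 in each *WT Phf6,RE9a* library and had 35, 15 and 44 counts in the *VC Phf6,RE9a* libraries, where it was at least 9.10-fold higher. *Crcp*, named for a role as a component of the CGRP receptor and also a subunit of RNA polymerase III, did not pass (log2 fold change 0.11, SE 0.12, adjusted p = 0.499 from edgeR). In all, 4 of the other 10 genes of the CGRP list were tested, of which 2 were lower and 1 higher, with a median log2 fold change of -0.20 against 0.01 over all genes tested.

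Of 19 genes that process and store peptide hormones, 4 were at 0 in every library and 5 were tested, of which 1 was lower and 4 higher in *VC Phf6,RE9a* cells (median 0.91). *Furin*, a protease of the secretory pathway that cuts many precursors, fell from 1931 ± 752 to 659 ± 62.4 CPM (SD, n = 3; log2 fold change -1.55, SE 0.29, adjusted p = 0.00408 from edgeR). *Cpd*, a carboxypeptidase of the Golgi, rose by a log2 fold change of 0.91 (SE 0.12) and *Pcsk7*, a relative of *Furin*, by 0.31 (SE 0.09), whose call was lost without *VC Phf6,RE9a* replicate 11 or 13 (adjusted p = 0.0889 and 0.0745 from edgeR). *Chga*, the gene of the granule protein chromogranin A, had 0, 1 and 1 counts in *WT Phf6,RE9a* and 26, 46 and 30 in *VC Phf6,RE9a* cells.

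Of 10 peptidases that can cut CGRP, 7 were tested, of which 5 were lower and 1 higher (median -4.62), and 4 of the 5 are proteases of mast cell granules. *Cpa3*, carboxypeptidase A3, fell from 6749 ± 1507 to 274 ± 116 CPM (log2 fold change -4.62, SE 0.37, adjusted p = 0.000103 from edgeR). The chymase *Cma1* had a log2 fold change of -5.64 (SE 0.32), and the tryptases *Tpsab1* and *Tpsb2* had -6.27 (SE 0.76) and -7.49 (SE 1.46). The fifth was *Ide*, the insulin-degrading enzyme (-0.40, SE 0.08). *Dpp4*, a dipeptidyl peptidase of the cell surface, was the gene that rose (3.22, SE 0.60). The last 2 lie outside the rule for named genes and were chosen after their values were seen.

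Of 36 genes through which Gq- and Gi-coupled receptors such as *Mrgprb2* signal and are switched off, 32 were tested, and 11 were lower, 8 higher and 13 did not pass (median -0.23). The largest falls were in regulators of G protein signalling, which shorten such signals, with *Rgs18* at -4.55 (SE 0.32) and *Rgs1* at -3.74 (SE 0.30) on the log2 scale. The cation channel *Trpv2* fell from 155 ± 15.4 to 24.9 ± 6.50 CPM (-2.64, SE 0.19, adjusted p = 6.8e-05 from edgeR), and the protein kinase C gene *Prkca* from 183 ± 11.2 to 79.1 ± 5.53 CPM (-1.21, SE 0.09). The Gi subunit *Gnai2* (-0.23, SE 0.08) and the inositol trisphosphate receptor *Itpr2* (-0.26, SE 0.15) did not pass. *Gnai2* did pass as lower without *WT Phf6,RE9a* replicate 2, and with all libraries in DESeq2 (adjusted p = 0.0373) and limma (adjusted p = 0.0487). The 8 higher genes were *Grk3* (1.25), *Itpr1* (1.13), *Gna11* (0.65), *Gna15* (0.63), *Plcb3* (0.59), *Orai2* (0.48), *Orai3* (0.46) and *Stim2* (0.42). These 8 lie outside the rule for named genes and were chosen after their values were seen. The number of higher genes was 5 without *VC Phf6,RE9a* replicate 11 or 13.

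**Figure D5:**
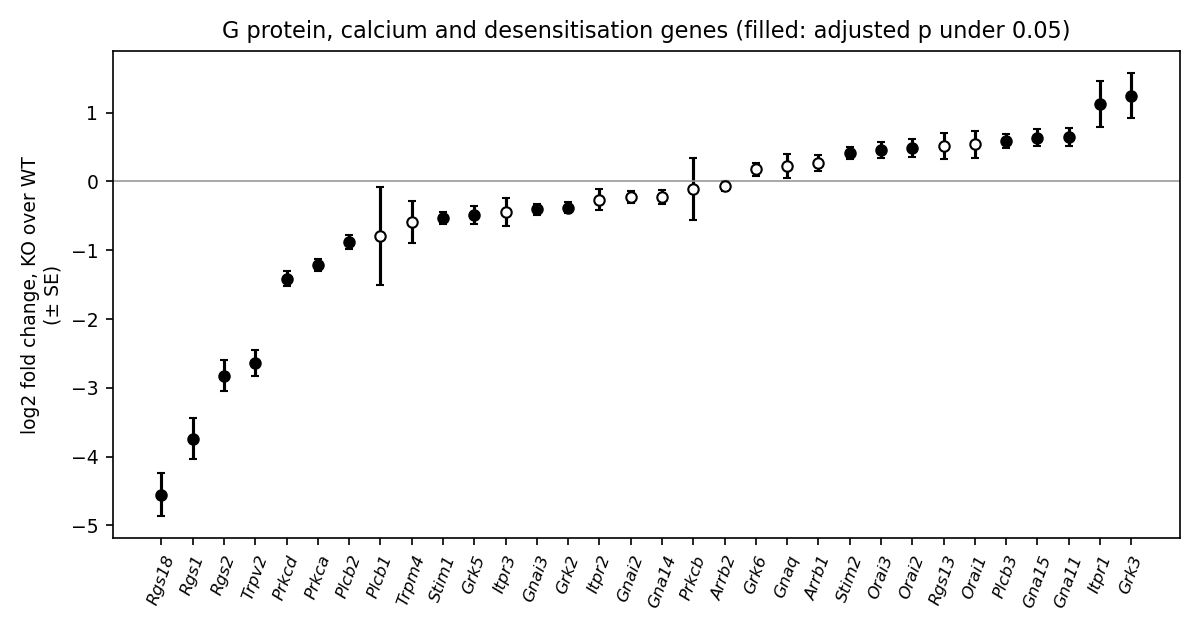
Log2 fold change of *VC Phf6,RE9a* (KO) over *WT Phf6,RE9a* (WT) cells (y axis, ± SE) for the 32 tested genes of receptor signalling, in order of the change (x axis). Filled points passed an adjusted p under 0.05. *Rgs18*, *Rgs1* and *Trpv2* are among the 11 filled points under 0, and 8 filled points lie above it.

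Genes of peptides listed as possible ligands of the Mas-related receptors of mast cells were looked at next. Of 19 such genes, 9 were at 0 in every library and 3 were tested, of which 2 were higher and 0 lower in *VC Phf6,RE9a* cells (median 3.39). *Tac2*, the gene of neurokinin B, had 25, 9 and 37 counts in *WT Phf6,RE9a* and 3188, 2861 and 4892 in *VC Phf6,RE9a* libraries (a log2 change of 7.14, SE 0.39, adjusted p = 2.8e-05 from edgeR). Its change was opposite in direction to that of the receptors, and whether neurokinin B acts on them was not tested. *Camp*, the gene of the cathelicidin peptide, rose from 14.2 ± 6.47 to 150 ± 83.0 CPM (3.39, SE 0.50), and the neuropeptide gene *Npff* did not pass (0.60, SE 0.35).

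Of 24 other receptors through which neuropeptides, complement and purines reach mast cells, 7 were tested, and 3 were lower, 1 higher and 3 did not pass (median -0.39). The complement receptor *C5ar1* rose from 1.33 ± 0.674 to 9.47 ± 7.30 CPM (log2 fold change 2.81, SE 0.71). The endothelin receptor *Ednra* (-0.43, SE 0.11), the adenosine receptor *Adora3* (-0.39, SE 0.13) and the melanocortin receptor *Mc1r* (-1.48, SE 0.48) were lower, and the purine receptor *P2rx7* did not pass (0.52, SE 0.22). The calls of the 3 lower receptors were not firm. *Mc1r* did not pass without *WT Phf6,RE9a* replicate 1 or 3, without any 1 of the *VC Phf6,RE9a* libraries, without a count filter, with DESeq2 or with limma (adjusted p from 0.0593 to 0.110). *Adora3* did not pass without *WT Phf6,RE9a* replicate 1 or 3 or *VC Phf6,RE9a* replicate 11 or 12 (adjusted p from 0.0854 to 0.139 from edgeR), and *Ednra* did not pass without *VC Phf6,RE9a* replicate 11 (adjusted p = 0.0666 from edgeR). Without *VC Phf6,RE9a* replicate 11 only 1 gene of this list was lower, and it was none of these 3. Without *WT Phf6,RE9a* replicate 2 there were 3 higher.

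Markers of the cells in which the members are known were set beside them. Of 29 tested mast cell markers 21 were lower and 3 higher in *VC Phf6,RE9a* cells (median -1.22). *Fcer1a* fell from 603 ± 166 to 5.30 ± 0.169 CPM (log2 fold change -6.83, SE 0.24, adjusted p = 1.9e-05 from edgeR). The monoamine transporter *Slc18a2* had a log2 fold change of -3.56 (SE 0.20), while histidine decarboxylase *Hdc* (-1.22, SE 0.23) and the IL-33 receptor *Il1rl1* (-0.98, SE 0.19) changed less. The 3 higher markers were *Fcer1g* (1.99, SE 0.42), *Ctsg* (1.45, SE 0.35) and *Siglecf* (0.93, SE 0.17). *Ms4a2* was among the 5 that did not pass (-0.13, SE 0.15), at 1180 against 1076 CPM. *Fcer1g*, *Ctsg*, *Siglecf* and *Ms4a2* lie outside the rule for named genes and were chosen after their values were seen. All 7 granule genes of connective tissue mast cells were lower, with a median of -5.64 and a sum of 16004.5 to 26910 CPM in *WT Phf6,RE9a* and 3639 to 3711 CPM in *VC Phf6,RE9a* cells. All 7 also belong to the list of mast cell markers, so this count is not separate from the one before it. Among them, the heparin-forming enzyme *Ndst2* had a log2 fold change of -1.19 (SE 0.13).

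Of 12 basophil markers, 9 were lower and 2 higher (median -1.81), with sums of 2031 to 2603 CPM in *WT Phf6,RE9a* and 1142 to 1475 CPM in *VC Phf6,RE9a* cells. The cytokines *Il13* (-4.55, SE 0.36) and *Il6* (-5.13, SE 0.37) and the activation antigen *Cd69* (-4.86, SE 0.35) fell most clearly, and *Gata2* fell by 0.71. *Mcpt8* (-2.06, SE 0.45) and *Prss34* (-1.56, SE 0.48) fell less than the cytokines. *Cebpa* was 1 of the 2 higher markers (1.94, SE 0.45). *Mcpt8*, *Prss34* and *Cebpa* lie outside the rule for named genes and were chosen after their values were seen. *Cd200r3* was higher (0.42, SE 0.14), but it did not pass without *WT Phf6,RE9a* replicate 2 or 3 or *VC Phf6,RE9a* replicate 11 or 13 (adjusted p from 0.0847 to 0.139 from edgeR) or with limma (adjusted p = 0.0576), which left 1 higher marker.

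*Calca* is best known from sensory neurons, and of 24 other markers of these cells 11 were at 0 in every library. Of 4 that could be tested, 1 was lower, 2 were higher and 1 did not pass (median 0.13), and the sum was 43.1 to 65.6 CPM in *WT Phf6,RE9a* and 39.4 to 40.5 CPM in *VC Phf6,RE9a* cells. The neurofilament gene *Nefh* fell from 38.6 ± 8.40 to 16.7 ± 2.78 CPM, while *Tubb3* (2.63, SE 0.46) and *Pou4f1* (1.28, SE 0.24) rose on the log2 scale. *Avil* did not pass (-1.01, SE 0.47), and it did so without *WT Phf6,RE9a* replicate 2, which made 2 lower genes.

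Of 14 tested lymphoid, macrophage and erythroid markers, 10 were higher and 0 lower in *VC Phf6,RE9a* cells (median 1.71), with sums of 1378 to 2110 CPM in *WT Phf6,RE9a* and 4496 to 5175 CPM in *VC Phf6,RE9a* cells. The globin genes *Hba-a1* (log2 fold change 2.36, SE 0.23), *Hbb-bs* (0.92, SE 0.18) and *Hbb-bt* (1.35, SE 0.22) and the red cell membrane gene *Epb42* (2.35, SE 0.19) were among the 10 higher. The 4 that did not pass were the macrophage markers *Adgre1*, *C1qa*, *C1qb* and *Cd5l* (adjusted p from 0.116 to 0.212 from edgeR). These macrophage markers lie outside the rule for named genes and were chosen after their values were seen. The part of the listed markers in the results on the members was not tested.

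The genes most like each member were taken by Pearson's r of log2 CPM over the 6 libraries. The libraries form 2 groups that differ at 44.2% of genes, so r is high for many genes, and 83, 252, 111 and 162 genes had r over 0.99 with *Mrgprb2*, *Mrgprx2*, *Mrgprb1* and *Calca*. For *Mrgprb2* the first were *Mindy2*, *AI413582*, *Cd276*, *Spred2* and *Camkmt*, and for *Mrgprx2* they were *Dcaf11*, *Gnptab*, *Gabrd*, *5730460C07Rik* and *Gm37472*. For *Mrgprb1* they were *Xirp1*, *Tpt1-ps3*, *Gm6093*, *Gm26550* and *Cntrl*, and for *Calca* they were *Vat1*, *Gm6093*, *Tex264*, *Ift88* and *Abca1*. *Gm6093* thus stood near both *Mrgprb1* (r = 0.999) and *Calca* (r = 0.999), with 1098, 5492 and 783 counts in *WT Phf6,RE9a* and 0 in each *VC Phf6,RE9a* library. *Gabrd*, a subunit of the GABA receptor, had 97, 63 and 78 counts in *WT Phf6,RE9a* and 0, 1 and 0 in *VC Phf6,RE9a* libraries, the same libraries with reads as *Mrgprx2*. A high r does not mean a change of like size. The log2 fold change was -0.58 for *Mindy2*, -0.60 for *Dcaf11*, -0.35 for *Cntrl* and -0.85 for *Tex264*. It was -3.61 for *Spred2*, -7.55 for *Gabrd* and -14.4 for *Gm6093*.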

How the data were processed

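Libraries of GFP+ leukemia cells, 3 of *WT Phf6,RE9a* and 3 of *VC Phf6,RE9a* cells, were made with the Illumina TruSeq RNA kit. The authors deposited read counts per Ensembl gene without normalization, which were used for all tests. They also deposited FPKM values, and a DESeq2 comparison of the groups. Its normalized group means (signal), its log2 ratios and its p-values, as deposited by the authors, were not used here. The submitters' processing notes name Bowtie 0.12.0 and mm8, with no role. The aligner, counter and strandedness behind the counts are not given in the sources used here. Of 54532 genes, 54495 had an identifier in GENCODE M21, with identical boundaries for 98.33%, and coordinates are therefore on GRCm38.

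Genes were filtered with filterByExpr, scaled by TMM and compared with edgeR 4.0.16 (quasi-likelihood test, Benjamini-Hochberg over 14169 genes, threshold 0.05) in R 4.3.3. The standard error (SE) is the absolute log2 change over the root of F. The tests were tried on simulated counts. Alternatives were DESeq2 1.42.0, RLE size factors, no filter, a minimum of 10 counts per library, limma 3.58.1 on log2(FPKM + 1), other windows around the members, another floor and each library left out in turn. Ratios against a group with reads are ratios of pooled rates and have exact 95% counting intervals. With 0 reads, the mean of the other group was set over a floor of 3 counts per library. *Mrgprx2* has 1 read in *VC Phf6,RE9a* cells and was given a ratio in place of the planned bound.

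The members and the 12 lists were chosen with earlier results of these data known. Named were the members, Mas-related and CGRP genes with reads, in each other list the 3 most highly read tested genes and the 3 of lowest p, tested genes within 500 kb, the 5 genes most like each member (prior count 2) and *Phf6*. Sequences came from RefSeq (GRCm38.p6) and were read with Biopython 1.88, and plots were made in Python 3.11.15 (matplotlib 3.10.9).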

Additional observations from a re-analysis of the deposited data

How the results depend on the processing

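No paired analysis was possible because the groups share no replicate numbers. Over the alternatives, 631 of 687 values of 64 named genes kept their direction and their side of the threshold or stayed within the spread of the replicates, 40 lost their call, 7 gained one, 7 moved and 2 reversed. The log2 fold change of *Crcp* ranged from -0.0093 (without *VC Phf6,RE9a* replicate 13) to 0.18 with each library left out in turn, and that of *E2f8* from -0.33 to 0.15 (without *WT Phf6,RE9a* replicate 3), and neither passed in any of the fits. With at least 10 counts in every library, which removes genes at 0 in a group, lower genes numbered 0 in the Mas-related family, 1 in the CGRP list and 5 among neighbours, and higher genes 0 in the Mas-related family, 0 in the CGRP list, 2 in prohormone processing, 0 among peptidases, 1 among ligands and 1 among sensory neuron markers. Limma on log2(FPKM + 1) called 0 genes of the CGRP list lower and 1 basophil marker higher, and without a filter 2 other neuropeptide receptors were higher. A window of 250 kb gave 4 lower neighbours and one of 1000 kb gave 3 higher. With 3 counts over the whole *VC Phf6,RE9a* group as the floor, *Mrgprb1* was at least 290.08-fold and *Calca* at least 318-fold higher in *WT Phf6,RE9a* cells. With each library left out in turn, lower genes ranged from 0 to 3 in the CGRP list, from 1 to 3 among other neuropeptide receptors and from 1 to 2 among sensory neuron markers, and higher genes from 5 to 9 in receptor signalling, from 1 to 3 among other neuropeptide receptors, from 1 to 2 among basophil markers and from 0 to 1 among neighbours. The ratio of *WT Phf6,RE9a* to *VC Phf6,RE9a* cells ranged from 408 to 961 for *Mrgprb2* and from 2044.73 to 3458 for *Mrgprx2*, except that without *VC Phf6,RE9a* replicate 12 no read was left and only a bound of at least 339-fold could be given. Except where the text shows it, the cause was not tested. The *VC Phf6,RE9a* values of the members rest on at most 8 reads per library, so their ratios are limited by depth.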
